A study of Mus musculus with 71 samples.

Results

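The night was compared with the day in the hippocampus of untrained mice whose high-fat, high-sugar food was given in a daily window. The comparison took the home cage mice on time-restricted feeding (HFS TRF) at zt15, 5 animals, and at zt3, 6 animals, which is 11 of the 71 mice in the count table. The genes are the protein-coding ones with at least 10 counts summed over all mice, 17601 of the 30141 genes that reached this sum and of 57010 in the count table. Every mouse was a wild-type C57BL/6J male. From 3 weeks of age the HFS animals ate a diet with 45% of its energy from lipids and added sucrose, for 12 weeks, and in the last 4 weeks of TRF the food was present only between zt11 and zt1. Light came on at zt0 for 12 h, so zt3 lies in the rest phase without food and zt15 in the active phase with food. Home cage mice with food at all hours on the same diet (HFS ad lib) or on normal chow (NC ad lib), 12 of each over zt3 and zt15, serve for comparison. The titles of the TRF libraries also carry the words ad libitum, whereas their diet entry says time-restricted feeding, and the diet entry was followed.

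RNA was obtained by pS6-TRAP, in which an antibody to ribosomal protein S6 in its phosphorylated form pulls down ribosomes of recently active cells together with the mRNA they carry. The deposited values are raw counts per gene. The 11 libraries held between 50094958 and 62758570 counts, and levels are given in CPM, counts of a gene per 1000000 counts of its library after scaling by TMM. Neurons were well represented: the 11 neuronal markers, including Camk2a and Slc17a7 of excitatory cells and Prox1 of the dentate gyrus, summed to between 12933.4 and 15474.3 CPM in each mouse, and none was at 0. All zt3 libraries come from one experiment of the study and all zt15 libraries from the other, so a difference of experiment would look the same as one of the hour. Libraries of the same time also differed in tissue content. The 12 choroid plexus markers, with Ttr the most abundant, summed to 121.5 CPM in the lowest zt3 mouse and 7505.3 CPM in the highest, and to 8057.2, 482.3, 19140.9, 9258.5 and 420.2 CPM in the zt15 mice.

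Clock genes form a feedback loop in which BMAL1, with CLOCK or NPAS2, switches on the Per and Cry genes, whose proteins then block that activity. REV-ERB proteins (Nr1d1, Nr1d2) repress and ROR proteins activate Bmal1, and output factors such as DBP carry the rhythm to other genes. In mouse tissues Bmal1 mRNA is known to be high around dawn, while Dbp and the Per genes are high toward and around dusk, and these genes served as the yardstick for a difference between night and day.

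Of the 3 activators of the clock 2 fell under TRF at zt15 and of its 5 repressors 3 rose. Bmal1 and Npas2 fell, and Per1, Per3, Cry1, both REV-ERB genes, Rorb, Dbp, Ciart, Hlf and Bhlhe41 rose, each passing an adjusted p of 0.05 by the quasi-likelihood test of edgeR, with the adjustment over all 30141 genes. Over all protein-coding genes that threshold was passed by 15.9%, with 9.03% rising and 6.88% falling. Bmal1 stood between 34.0 and 42.3 CPM at zt3 (median 38.2) and at 24.5, 30.1, 21.9, 24.2 and 24.0 CPM in the zt15 mice. Each zt15 mouse lay below every zt3 mouse, and the log2 fold change was -0.60 (SE 0.11, adjusted p = 1.9e-05). Npas2, the partner of BMAL1 in forebrain, ranged from 21.1 to 26.2 CPM at zt3 (median 24.6) and was 19.4, 19.3, 18.7, 16.7 and 15.7 CPM at zt15, again without overlap (log2 fold change -0.43, adjusted p = 0.0021). Clock itself gave -0.04 (SE 0.09, adjusted p = 0.885).

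Of the repressors, Cry1 had the smallest adjusted p of any protein-coding gene whose sequence is not shared with other loci. It rose from 15.3 to 19.5 CPM across the zt3 mice (median 17.5) to 31.0, 27.9, 23.7, 32.8 and 29.5 CPM at zt15, and the log2 fold change was 0.74 (SE 0.09, adjusted p = 1.4e-09). The groups did not overlap for Cry1, nor for Per1 and Per3. Per1 was 61.8 to 73.1 CPM at zt3 (median 68.2) and 103, 81.4, 88.6, 118 and 125 CPM at zt15, a log2 fold change of 0.61, and Per3 went from 12.6 to 16.8 CPM (median 14.0) to 21.5, 20.1, 18.6, 21.1 and 20.6 CPM, a log2 fold change of 0.52. Per2 and Cry2 did not pass the test. Their log2 fold changes were 0.24 (SE 0.15, adjusted p = 0.3) and 0.16 (SE 0.06, adjusted p = 0.0778), and in Per2 the zt15 mice were spread, 3 of them above every zt3 mouse and the other 2 among them. Cry2 was called in 6 of the alternative fits, with the smallest adjusted p under the DESeq2 Wald test (0.0335).

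**Figure D1:**
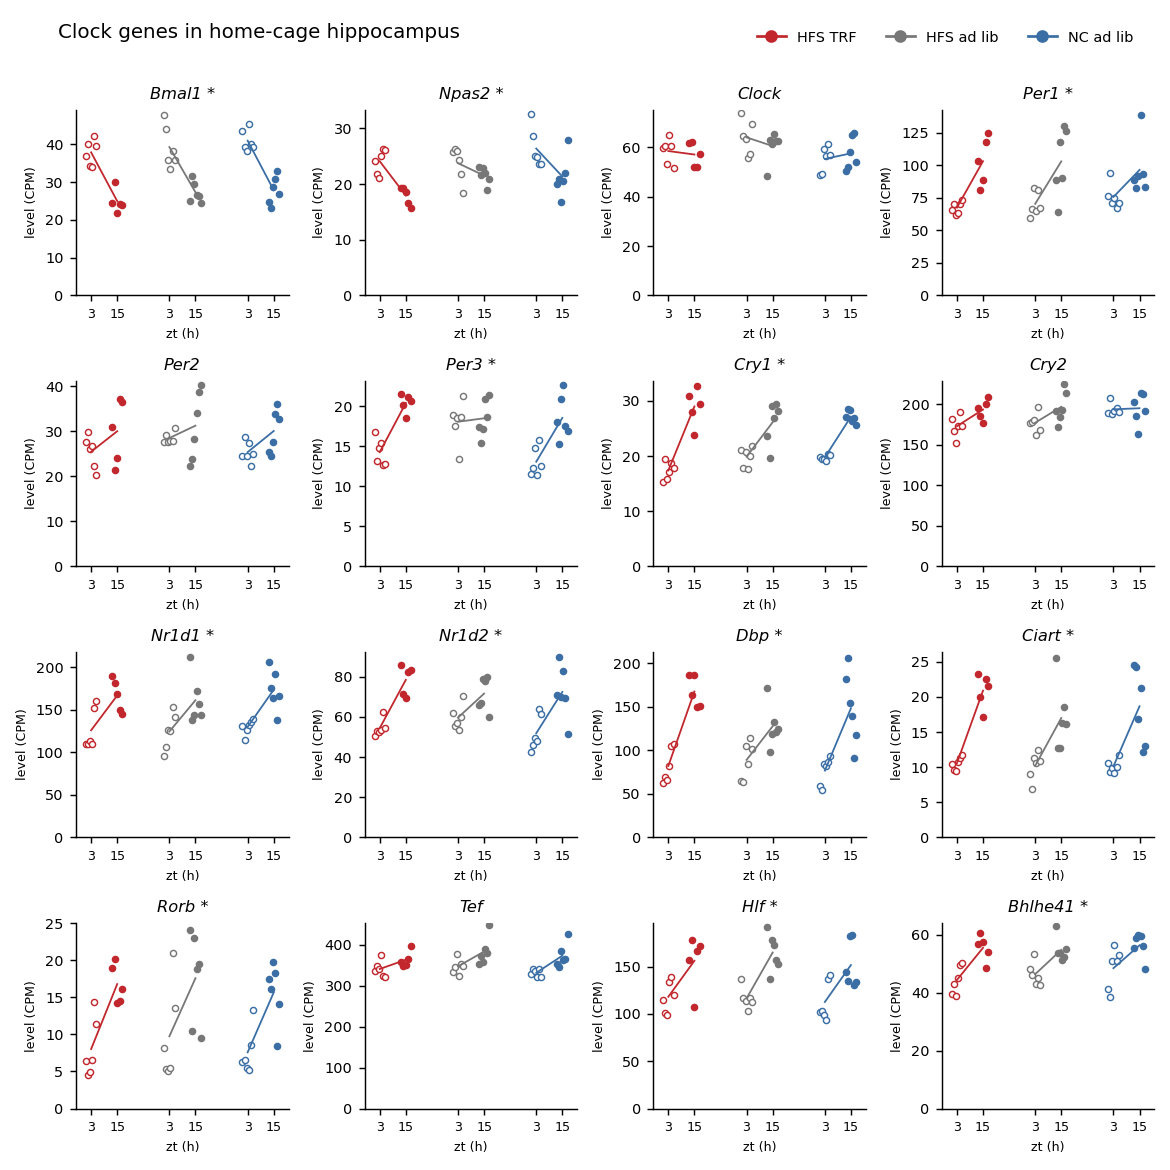
Levels of 16 clock genes in each home cage mouse, in CPM, at zt3 (open points) and zt15 (filled points), with HFS TRF in red, HFS ad lib in grey, NC ad lib in blue, lines between group means and an asterisk for an adjusted p under 0.05 under HFS TRF. Bmal1 and Npas2 are lower and Cry1, Per3, Dbp and Ciart higher in every TRF mouse at zt15 than in any at zt3.

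Of 7 output factors 4 rose and 0 fell. Dbp, the PAR leucine zipper factor of the output, was 62.8 to 108 CPM at zt3 (median 75.4) and 187, 164, 186, 150 and 151 CPM at zt15. Ciart, which binds and inhibits CLOCK and BMAL1, went from 9.46 to 11.8 CPM (median 10.6) to 23.2, 19.99, 17.2, 22.5 and 21.5 CPM. In both genes every zt15 mouse was above every zt3 mouse, with log2 fold changes of 1.03 (SE 0.17) and 0.98 (SE 0.15). Ciart has 10.4% of its 50-base words at another locus and is uncertain by the limit of 10% used here. Nr1d2 rose by 0.53 on the log2 scale without overlap between the times, and Nr1d1 by 0.41, with 3 zt15 mice above all zt3 mice. The Nr1d1 call was lost without zt15 replicate 1 (adjusted p = 0.0538), and 52.3% of its exon bases lie in exons of Thra on the opposite strand, so that the 2 genes may share reads. Rorb rose by 1.06, Hlf by 0.40 and Bhlhe41 by 0.32, each with at least 1 zt15 mouse within the zt3 range. Tef (0.09), Rora (0.14) and Bhlhe40 (-0.08) did not pass, and neither did Nfil3 (0.48, adjusted p = 0.06), which was called in 4 of the alternative fits (down to 0.0228 without zt15 replicate 2). Of the 11 modifiers of clock proteins, such as the kinases Csnk1d and Csnk1e and the ligase Btrc, 0 rose and 0 fell, against the 15.9% called among all protein-coding genes, and their median log2 fold change was -0.11.

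Promoter sequences of the clock genes were read for the elements through which the loop is known to act, as a description only. RefSeq windows of 250 bases upstream of the annotated start were used for 17 of the 20 clock genes, on the GRCm38.p6 build. Motifs were looked for on both strands. The 17 genes have 23 windows between them, so their counts, which are of genes, are not of the same kind as a share of windows. The E-box CACGTG, bound by BMAL1 with CLOCK, occurs in 6.02% of the 32817 promoter windows of the genome and in those of 5 clock genes, Per1, Cry1, Tef, Ciart and Bhlhe41, of which all but Tef rose at zt15. Per3, Nr1d1, Nr1d2, Rorb, Dbp and Hlf have no E-box in their windows and rose as well. Bmal1 and Npas2 have none and fell, and Clock, Cry2, Rora and Nfil3 have none and did not pass. In the sequences that follow the motif is in capitals. Cry1 carries it 60 bases upstream of the start (chr10:85185083-85185140, minus strand), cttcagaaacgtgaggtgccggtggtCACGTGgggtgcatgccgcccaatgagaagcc. Per1 has it 166 bases upstream (chr11:69098757-69098814, plus strand), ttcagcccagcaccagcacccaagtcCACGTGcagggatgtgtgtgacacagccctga. Ciart holds 3 copies, the farthest 116 bases upstream (chr3:95882313-95882370, minus strand), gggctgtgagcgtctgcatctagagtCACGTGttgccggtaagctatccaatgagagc. The D-box TTATGTAA, bound by DBP, TEF and HLF and repressed by NFIL3, is present in 0.817% of all windows and in 1 clock gene, Per3, at 205 bases (chr4:151044837-151044896, minus strand), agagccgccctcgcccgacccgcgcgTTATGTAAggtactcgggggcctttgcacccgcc, and again at 158 bases. The ROR element TAGGTCA (2.24% of windows) was found near the start of Nfil3 alone, and 10 of the 17 genes, Bmal1 and Dbp among them, had none of the 3 motifs in these windows.

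With the clock genes included, 2800 of the 17601 protein-coding genes were called, 1589 rising and 1211 falling at zt15. The median log2 fold change was 0.48 among the rises, -0.34 among the falls and 0.03 over all protein-coding genes. Changes past a doubling or a halving numbered 369, of which 291 were rises. The mice of the 2 times did not overlap in CPM for 9.61% of the genes, 1691 in number. The share of rises among the called genes was 56.8%, and went from 46.5% when the model held protein-coding genes alone (1421 rises, 1635 falls) to 65.1% with a minimum of 1 count (1725 and 923). Without the 5 mice whose choroid plexus markers exceeded 5000 CPM, which left 4 at zt3 and 2 at zt15, 869 genes were called. In that smaller fit Cry1, Dbp, Ciart, Per1, Nr1d2, Hlf and Bmal1 were still called, and Npas2, Per3, Nr1d1, Rorb and Bhlhe41 were not. The log2 fold changes of those 5 were -0.48, 0.48, 0.43, 1.19 and 0.36 there, with adjusted p = 0.0509, 0.0993, 0.136, 0.0544 and 0.0517. Of the 168 genes followed over all fits, 46 lost their call in it and 8 changed sign.

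Many of the smallest p values fell on genes that share sequence with other loci, and these were set apart. Reads from such genes can be assigned to a copy, so that a count of the gene is uncertain. The coding transcripts of each gene were divided into all words of 50 bases, the length of 1 read, and a gene with at least 10% of its words at another locus was taken as shared. The 16345 genes under that limit gave 2568 calls, 15.7%, with 1428 rises and 1140 falls. The 1256 at or above it gave 161 rises and 71 falls (18.5% called, median log2 fold change 0.06), and the 257 of them with at least 60% of words elsewhere 13 rises and 32 falls (median -0.36). Gapdhrt, a retrocopy of Gapdh with 56.2% of its words elsewhere, had the smallest adjusted p of all protein-coding genes. It stood at 20.6 to 23.0 CPM at zt3 (median 21.8) and at 2.90, 2.83, 2.43, 2.59 and 2.64 CPM at zt15. AK157302 (log2 fold change -4.72), Gapdhrt2 (-2.55), Ube2srt (-3.63), Adrm1b (-2.15), Gm8797 (-3.09), Rpl35rt (-0.91) and Pam16l (-3.32) followed among the falls, while Uba52rt rose by 1.70. Acot10, a gene without introns that resembles Acot9, fell as well, with 23.1% of its words elsewhere. Processed pseudogenes, which are not protein-coding, went the same way: of 3511 tested, 62 rose and 1026 fell, and their median log2 fold change was -1.36. On HFS ad lib it was -1.34 and on NC ad lib -1.31, where 1017 and 1084 fell, and -1.38 between the trained TRF groups of the same pair of experiments.

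**Figure D2:**
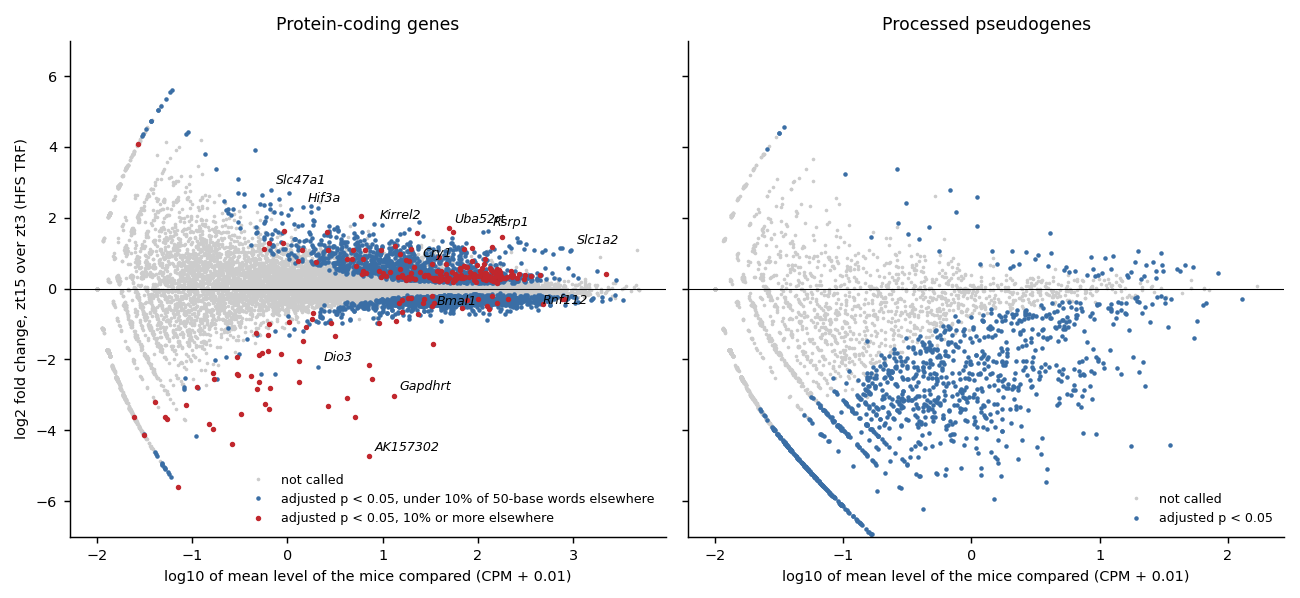
Log2 fold change of zt15 over zt3 under HFS TRF against the mean level of the 11 mice (log10 of CPM + 0.01), for protein-coding genes and for processed pseudogenes, each point a gene, coloured where the adjusted p is under 0.05 and red with at least 10% of its 50-base words at another locus. The called pseudogenes lie mostly below 0, with 1026 falls and 62 rises. Of the called protein-coding genes with at least 10% of words elsewhere 161 rose and 71 fell.

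The libraries differed between the times in other ways too, and a relation of these to the fall of the copies was not tested. At zt3 between 23545 and 24265 genes had at least 1 count (median 24076.5), and at zt15 22388, 22309, 22541, 22182 and 22343. No zt15 mouse reached the lowest zt3 mouse (p = 0.00216, two-sided exact permutation, the smallest that 11 mice divided in this way can give). Protein-coding genes took 98.1% of counts in the median zt3 mouse and 97.8% in the median zt15 mouse. Genes with short exons were higher at zt15: among genes above 5 CPM the median log2 fold change was 0.13 for the 718 with under 2500 exon bases, of which 183 rose and 27 fell, and -0.02 for the 6355 with over 6000, of which 581 rose and 807 fell. The same medians were 0.10 and -0.01 in HFS ad lib, and 0.01 and 0.01 in NC ad lib mice. The part of these differences in the changes of single genes was not tested.

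Among genes with little shared sequence, those with the smallest adjusted p that rose after Cry1 were Kirrel2, Lrrc58, Rsrp1, Alkbh5, Cxcl12, Rrp8 and Phf23. Rsrp1, which encodes an arginine- and serine-rich protein, was 51.8 to 92.7 CPM at zt3 (median 59.9) and 221, 190, 180, 204 and 205 CPM at zt15. Kirrel2, an adhesion molecule of the nephrin family, went from 3.15 to 4.96 CPM (median 3.59) to 19.2, 10.4, 14.8, 10.1 and 12.0 CPM. Neither gene overlapped between the times, and the log2 fold changes were 1.62 (SE 0.21) and 1.82 (SE 0.23). Alkbh5 and Rrp8, which act on methyl groups of RNA, rose by 0.48 and 0.79, Lrrc58 by 0.71, and Phf23 by 0.44. Cxcl12, the chemokine that guides migrating cells, rose by 1.08, from a median of 6.31 CPM to 13.7, 15.4, 13.4, 10.9 and 12.4 CPM.

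Among the falls in the same set the smallest adjusted p belonged to Plcg1, Rnf112, Pde1a, Cog1, Appl1, Cpne8, Nrde2 and Ctr9. Plcg1, the phospholipase C downstream of the BDNF receptor, was 44.9 to 50.98 CPM at zt3 (median 48.3) and 35.7, 33.2, 34.5, 29.5 and 31.5 CPM at zt15. Rnf112, a brain ubiquitin ligase, was 457 to 524 CPM (median 516) and 324, 347, 355, 316 and 310 CPM. Both were lower in every zt15 mouse, with log2 fold changes of -0.56 (SE 0.08, adjusted p = 2.9e-08) and -0.60 (SE 0.08, adjusted p = 1.1e-07). The calcium- and calmodulin-dependent phosphodiesterase Pde1a fell by 0.62, the Golgi tethering subunit Cog1 by 0.61, the endosomal adaptor Appl1 by 0.60, Cpne8 by 0.64, Nrde2 by 0.63 and the transcription elongation factor Ctr9 by 0.50, each without overlap of the mice.

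Larger fold changes were found at low levels. Slc47a1, an efflux transporter of organic cations, was 0.0716 to 0.397 CPM at zt3 (median 0.146) and 1.95, 0.529, 1.54, 0.638 and 1.497 CPM at zt15, a log2 fold change of 2.79 (SE 0.57). Hif3a, an antagonist of the hypoxia response, rose by 2.29, the mesenchymal factor Foxc2 by 2.34 and Tmem52 by 2.35. Ppp1r17 gave 2.70, but its call was lost on leaving out any of 10 of the 11 mice, with 1.99 and adjusted p = 0.2 without zt15 replicate 3. On the falling side Dio3, which inactivates thyroid hormone, went from 2.11 to 5.09 CPM (median 3.09) to 0.344, 0.793, 0.566, 0.825 and 0.963 CPM. Its log2 fold change was -2.20 (SE 0.42, adjusted p = 8.2e-05), and all zt15 mice were below all zt3 mice. Csl fell by 2.40, Aldoart2 by 1.32 and the kinesin Kif26a by 0.96. The symbol of Aldoart2 ends like those of the retrocopies above. Of 19 genes with such symbols and at least 10% of words elsewhere, 7 fell and 2 rose under TRF, and 7 and 6 fell on HFS ad lib and NC ad lib. The part of copies in the fall of Aldoart2 was not tested. Without the 5 mice rich in choroid plexus Tmem52, Ppp1r17, Dio3, Csl, Aldoart2, Kif26a and Igbp1b were not called, with log2 fold changes of 2.22, 2.14, -1.94, -1.70, -1.09, -0.87 and -0.89. Igbp1b fell by 1.13, and lost its call without zt15 replicate 3 (adjusted p = 0.0794) or without zt15 replicate 4 (adjusted p = 0.0566).

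Astrocyte genes were higher at night under TRF. Of 10 astrocyte markers 9 rose, with a median log2 fold change of 1.21 beside 0.03 for all protein-coding genes, of which 9.03% rose, and Aldh1l1 (0.67, adjusted p = 0.119) did not pass. Gfap, the astrocyte filament, was 90.8 to 269 CPM at zt3 (median 128) and 450, 375, 425, 373 and 407 CPM at zt15. Gjb6, a gap junction protein, was 4.59 to 14.4 CPM (median 9.18) and 35.9, 25.9, 38.2, 23.5 and 25.9 CPM. In both, every zt15 mouse was above every zt3 mouse, and the log2 fold changes were 1.32 (SE 0.25) and 1.68 (SE 0.30). The 10 markers summed to 1298.2, 1459.2, 1000.6, 1130.0, 2488.9 and 2333.4 CPM in the zt3 mice and to 4293.7, 3404.8, 4158.1, 2933.3 and 3298.3 CPM at zt15, with Slc1a2 the most abundant and none at 0. In bulk tissue more cells of a type and more RNA per cell cannot be told apart, and here also a larger share of astrocyte ribosomes in the pulled-down fraction. Without the 2 zt3 mice above 2000 CPM for these markers, 2877 protein-coding genes were called and all 10 markers rose. That fit is no check on the markers. Its mice were picked by these same sums and from zt3 alone, though every zt15 mouse was above 2000 CPM too. It could only widen the difference between the sums. Without the 5 mice rich in choroid plexus 4 of the 10 rose (median log2 fold change 1.09), Gfap, Gjb6 and Slc1a2 among them.

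Genes of glutamate clearance and potassium handling, 15 in the list and largely made by astrocytes, gave 11 rises and 0 falls (median log2 fold change 1.06), beside 9.03% rising among all protein-coding genes. Slc1a2, Slc1a3, Gja1, Gjb6 and Aqp4, 5 of the rises, are also among the 10 astrocyte markers. The glutamate transporter Slc1a2 (GLT-1) was 449 to 852 CPM at zt3 (median 588) and 1545, 1307, 1647, 1069 and 1181 CPM at zt15. Slc1a3 (GLAST) was 76.5 to 271 CPM (median 132) and 478, 355, 494, 288 and 324 CPM, and glutamine synthetase, Glul, 413 to 948 CPM (median 505) and 1533, 1121, 1350, 1212 and 1235 CPM. The zt15 mice were above all zt3 mice for all 3 genes, and the log2 fold changes were 1.10, 1.32 and 1.06. The cystine and glutamate exchanger Slc7a11 rose by 1.05, the NMDA receptor subunit Grin2c by 1.18, the glutamine carrier Slc38a5 by 1.22, the potassium channel Kcnj10 by 0.84, the connexin Gja1 by 1.27 and the water channel Aqp4 by 1.11. Slc25a18 (0.85) was called but lost its call without any of 8 of the mice, with the least support without zt15 replicate 1 (adjusted p = 0.124). The receptors Grm3 (0.70) and Grm5 (-0.28), Glud1 (0.27) and Slc38a3 (0.79) did not pass, although Grm3 was called in 5 of the alternative fits, Grm5 in 7 and Glud1 in 1 (adjusted p down to 0.00701, 0.0286 and 0.0159). The fit that called Glud1, also among those for Grm3 and Grm5, left out the zt3 mice rich in astrocyte markers. Because it was picked by those markers, it gives no support of its own for genes that follow them. Without the mice rich in choroid plexus 2 of the 15 rose (median log2 fold change 0.98). Slc1a3, Glul, Slc7a11, Grin2c, Slc38a5, Kcnj10, Gja1, Aqp4 and Slc25a18 were then not called, with adjusted p from 0.0501 (Glul) to 0.343 (Slc25a18).

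Of 24 genes of thyroid hormone supply and action 5 rose and 4 fell, with a median log2 fold change of 0.18, beside 9.03% rising and 6.88% falling among all protein-coding genes. Dio2, which makes the active hormone in astrocytes, was 9.63 to 24.3 CPM at zt3 (median 11.7) and 47.5, 37.4, 43.8, 37.6 and 38.6 CPM at zt15, so that it rose by 1.49 without overlap (SE 0.25, adjusted p = 6.2e-06) while Dio3 fell. The sodium pump subunit Atp1b2, also expressed in astrocytes, rose by 0.73, Notch1 by 0.84 and Med12 by 0.50. Crym, a cytosolic binder of the hormone, was 397 to 503 CPM (median 472) and 337, 311, 279, 337 and 394 CPM, a log2 fold change of -0.48 with every zt15 mouse lower. The coactivator Ncoa1 fell by 0.25, and Rxrg by 0.88, with its call lost without any of 4 of the mice (zt3 replicate 4 and zt15 replicates 2 to 4, the highest adjusted p 0.0774 without zt15 replicate 2). The receptors Thra (-0.01) and Thrb (0.12) and the carrier Slco1c1 (0.79, SE 0.63), which the choroid plexus also makes, did not pass, nor did Slc16a10 (0.20), Slc7a5 (0.09), Rxra (0.18), Rxrb (0.01), Ncor1 (-0.17), Hr (0.33), Mapk3 (0.17), Med16 (-0.04), Pik3ca (0.02) and Plcd4 (0.64). Of these Hr, Ncor1, Mapk3 and Plcd4 were called in some alternative fits (adjusted p down to 0.0205, 0.0138, 0.0319 and 0.0237). Plcd4 was called only without zt3 replicate 6 or without the zt3 mice rich in astrocyte markers, of which replicate 6 is 1. Without the mice rich in choroid plexus 869 of all 17601 genes were called, and of the list Dio2 rose and Ncoa1 fell (median log2 fold change 0.09). The calls of Dio3 (adjusted p = 0.0592), Crym (0.152), Notch1 (0.134), Atp1b2 (0.114), Med12 (0.289) and Rxrg (0.29) were lost there. The share of the astrocyte markers in the rises of this list was not tested.

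Of 30 immediate early genes 16 rose and 0 fell at zt15, beside 15.9% called among all protein-coding genes, with a median log2 fold change of 0.62. They summed to 2053.0 to 2294.2 CPM at zt3 and to 2501.5, 2406.0, 2349.1, 3287.6 and 3575.9 CPM at zt15. Without zt3 replicate 1, zt15 replicate 4 or zt15 replicate 5 the rises numbered 12 each time, with medians of 0.60, 0.61 and 0.51. Without the mice rich in choroid plexus, where 869 genes were called in all, 6 rose, Arc and Sik1 among them, and the median was 0.60. Arc, a postsynaptic protein made on neuronal activity, was 104 to 174 CPM at zt3 (median 143) and 283, 264, 306, 360 and 364 CPM at zt15. The kinase Sik1 was 4.55 to 10.9 CPM (median 7.19) and 21.8, 12.4, 22.5, 18.9 and 15.9 CPM. The times did not overlap for either gene, and the log2 fold changes were 1.14 (SE 0.20) and 1.34 (SE 0.24). Klf4 rose by 1.85, Egr2 by 1.32, Fos by 1.25, Atf3 by 1.19, Ier2 by 0.96 and Junb by 0.66, whereas Npas4 (0.64, adjusted p = 0.175), Egr3 (0.12), Nptx2 (0.00), Bdnf (0.18) and Homer1 (0.03), the most abundant of the list, did not pass.

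Genes that glucocorticoids are known to induce rose in part, 9 of 20 with 0 falls (median log2 fold change 0.42), beside 9.03% rising among all protein-coding genes. Tsc22d3 (GILZ) was 43.0 to 53.03 CPM at zt3 (median 50.0) and 99.9, 94.2, 83.2, 74.9 and 86.1 CPM at zt15, higher in every zt15 mouse, with a log2 fold change of 0.85 (adjusted p = 6.0e-07). The metallothioneins Mt1 and Mt2 rose by 1.42 and 1.60, Plin4 by 2.27, Sult1a1 by 1.27, Klf15 by 0.53, Errfi1 by 0.49 and Ddit4 by 0.44. Fkbp5 (0.23, adjusted p = 0.067), Sgk1 (0.28), Klf9 (0.20) and the receptor gene Nr3c1 (-0.23) did not pass. There were 5 rises of 20 without the mice rich in choroid plexus (median 0.34). Mt1, Mt2, Plin4 and Pdk4 are made by astrocytes as well as other cells.

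Of 22 genes of the heat and cold response 4 rose and 3 fell, with a median log2 fold change of -0.02, beside 15.9% called among all protein-coding genes. Over all fits the rises numbered 1 to 5 and the falls 1 to 7. Both were 1 without the mice rich in choroid plexus, where Hspb1 (log2 fold change 1.28, adjusted p = 0.392) and Hspa4 (-0.51, 0.0578) were not called. The HSP110 family genes Hspa4, Hspa4l and Hsph1 fell by 0.52, 0.44 and 0.37, and Hspa4 was 260 to 322 CPM at zt3 (median 292) and 220, 188, 200, 211 and 205 CPM at zt15. The small heat shock gene Hspb1 rose by 2.05, its cochaperone Bag3 by 0.63, Dnajb1 by 0.40 and Hspe1 by 0.32. The cold-induced RNA-binding genes Cirbp (0.20) and Rbm3 (0.34) did not pass, nor did Hsp90ab1 (-0.27, adjusted p = 0.0581), which was called in 5 of the alternative fits (down to 0.0154). Hspa1a and Hspa1b, near-identical copies, are uncertain, and 9 of the 22 genes have at least 10% of their words elsewhere. Of 21 chaperones and stress genes of the endoplasmic reticulum 4 rose and 0 fell (median log2 fold change 0.26), among them Sdf2l1 by 1.05 and Xbp1 by 0.58, and Hspa5 gave 0.37 (SE 0.27, adjusted p = 0.386). The 4 rises of 21 stand beside the same 15.9%, and over all fits they numbered from 0 (without zt15 replicate 4 or without zt15 replicate 5) to 9 (without zt15 replicate 2). The median of the 21 was 0.15 without zt15 replicate 4 and 0.05 without the mice rich in choroid plexus. Ddit3 (0.49) and Atf4 (0.26) were called but lost the call without zt15 replicate 4 (adjusted p = 0.076 and 0.104) or without zt15 replicate 5 (adjusted p = 0.159 and 0.116), and 64.1% of the exon bases of Ddit3 lie within Mars1.

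Of 30 genes of the insulin and nutrient pathways 7 rose and 2 fell, with a median log2 fold change of 0.22, beside 15.9% called among all protein-coding genes. Without the mice rich in choroid plexus 2 rose and 1 fell, and the median was 0.08 there and 0.11 without zt15 replicate 3. Foxo3, the fasting-responsive forkhead factor, was 62.3 to 76.7 CPM at zt3 (median 65.0) and 90.2, 86.9, 93.1, 81.3 and 78.3 CPM at zt15, a log2 fold change of 0.34 without overlap. Irs1 rose by 0.38, Akt2 by 0.42, Sesn3 by 0.34, Eif4ebp2 by 0.36 and the growth hormone receptor Ghr by 0.99. Rps6, whose protein is the target of the pull-down, rose by 0.45 with 17.0% of its words elsewhere. Mtor (-0.26) and Tsc2 (-0.25) were called as falls, with the call lost without zt15 replicate 4 (adjusted p = 0.146 and 0.0689). Each of zt3 replicate 1, zt15 replicate 2 and zt15 replicate 5 also ended both calls (for Tsc2 up to an adjusted p of 0.115 without zt3 replicate 1), and zt3 replicate 3 that of Mtor (0.0619), which was also lost without the mice rich in choroid plexus (0.103). Of 22 genes of fat and ketone use 5 rose and 0 fell (median log2 fold change 0.35), beside 9.03% rising among all protein-coding genes, among them Ppara by 1.59, Pdk4 by 0.90, Acadl by 0.72 and the monocarboxylate carrier Slc16a1 by 0.40. Oxct1, the most abundant of them, gave -0.12. On leaving out single mice the rises numbered between 2 and 5, and without the mice rich in choroid plexus 0 (median 0.05), with Ppara at 1.59 (adjusted p = 0.057) and Slc16a1 at 0.36 (0.252). Of 25 genes of cholesterol synthesis 1 was called (median log2 fold change 0.09). That gene was Pmvk (0.28), called no longer without zt3 replicate 2, zt15 replicate 4 or zt15 replicate 5 (adjusted p = 0.0545, 0.0776 and 0.116).

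Of 82 ribosomal protein genes 65 rose and 2 fell, beside 9.03% rising and 6.88% falling among all protein-coding genes, with a median log2 fold change of 0.37, and 62 of the 82 have at least 10% of their words elsewhere. They summed to 8711.9 CPM in the lowest zt3 mouse and 9926.6 CPM in the highest (median 9010.0), and to 10695.8, 11295.1, 11221.0, 13067.9 and 12751.6 CPM at zt15. Rpl4, the most abundant and with 7.03% of its words elsewhere, rose by 0.27. Rps27 (1.12), Rps29 (0.83), Rps10 (0.81), Rpl35 (0.79), Rps18 (0.66) and Rpl36a (0.61) rose and Rpl17 (-0.65) and Rpl23a (-0.40) fell, all with sequence shared with other loci and hence uncertain. The Rpl23a call was lost without the mice rich in choroid plexus (-0.33, adjusted p = 0.146). Of 85 nuclear genes of oxidative phosphorylation 43 rose and 4 fell (median log2 fold change 0.25), and 24 rose without zt15 replicate 4 and 20 without the mice rich in choroid plexus (median 0.29), where 59 ribosomal protein genes rose and 1 fell. The small subunits Uqcrh and Ndufs5 rose by 0.41 and 0.44, while the large core subunits Uqcrc2, Ndufs1, Uqcrc1 and Sdha fell by 0.37, 0.39, 0.27 and 0.23, and the abundant Atp5f1b gave -0.06. Of these 4 falls Uqcrc2 alone was called without the mice rich in choroid plexus, with Ndufs1 at -0.36 (adjusted p = 0.0919). Of 13 genes of the mitochondrial genome 4 rose and 3 fell, beside the 9.03% and 6.88%, and 7 share at least 10% of their words with nuclear loci. On leaving out single mice the rises numbered 1 in 6 fits and 0 without zt15 replicate 5, and they were 0 without the mice rich in choroid plexus. Those that rose include mt-Nd4 (1.14), called no longer without zt15 replicate 5 (adjusted p = 0.0578), and mt-Nd2 (1.11), called no longer without any of 7 of the mice (up to 0.0935 without zt15 replicate 5). The genes mt-Atp6 (-3.25) and mt-Co2 (-2.79) fell, with 99.5% and 100% of their words elsewhere.

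Of 24 synaptic genes linked to sleep need 4 were called, beside 15.9% of all protein-coding genes. Of these 1 rose, Arc, and 3 fell, Gria2 by 0.33, Syn2 by 0.27 and Sik3 by 0.23, with a median log2 fold change of -0.14. The Sik3 call was lost without zt15 replicate 2 (adjusted p = 0.071). In the fit without mice rich in choroid plexus Arc rose and Sik3 fell, and Gria2 and Syn2 (-0.29, adjusted p = 0.0939) were not called. Camk2a gave -0.05 and Nrgn 0.05. Of 11 neuronal markers 1 rose, Neurod2 (0.23, adjusted p = 0.0498), and 1 fell, Tubb3 (-0.27), with a median of -0.08. Neurod2 lost its call without any of 9 of the mice (adjusted p = 0.117 without zt3 replicate 6), and Tubb3 without zt15 replicate 3 (adjusted p = 0.0825). Neither was called without the mice rich in choroid plexus (0.301 and 0.424).

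Markers of other cells were read in the same way. Blood genes rose, 5 of 5 (median log2 fold change 1.46), beside 9.03% of all protein-coding genes, and summed to 97.02 to 229.3 CPM at zt3 (median 143.4) and to 538.2, 436.2, 415.9, 378.2 and 381.6 CPM at zt15, with Hbb-bs the most abundant. Hbb-bs rose by 1.46 and Hba-a1 by 1.61, genes whose near copies make the split among them uncertain. Of 8 mural cell markers 3 rose, Tagln by 2.17, Acta2 by 2.13 and Pdgfrb by 0.99, with sums of 22.07 to 29.17 CPM at zt3 and 51.47, 46.76, 47.12, 36.68 and 37.79 CPM at zt15. None of the 8 was called without the mice rich in choroid plexus, with a median log2 fold change of 0.88 beside 0.95 in all mice. Kcnj8 and Abcc9 of that list were at 0 in at least 1 mouse. Of 9 endothelial markers 1 rose, Cdh5 by 2.52, while Itm2a, the most abundant, gave 0.08 and Cldn5 0.07. Of 9 myelin genes Mobp rose by 0.42, a call lost without any of 6 of the mice (adjusted p = 0.132 without zt15 replicate 2), and Opalin, of newly formed myelin, fell by 0.96 without overlap, with Mbp at 0.14 (median log2 fold change 0.10). Of 7 genes of oligodendrocyte precursors 1 rose, Gpr17, a receptor of cells about to differentiate, from 31.4 to 46.5 CPM at zt3 (median 37.8) to 57.5, 69.8, 62.98, 61.4 and 63.5 CPM. Olig1 gave -0.01. Of 10 microglial markers 0 rose and 0 fell (median log2 fold change -0.14). The 12 choroid plexus genes (Ttr 1.09, SE 1.23), the 6 ependymal genes (Foxj1 0.88) and the 7 genes of neighbouring thalamus (Prkcd -0.12) had 0 calls, and of 7 striatal genes 1 fell, Rgs9 by 0.49, while Ppp1r1b gave 0.62. The calls of Rgs9 (adjusted p = 0.239) and Mobp (0.11) were lost without the mice rich in choroid plexus. The part of these cells in the changes of other genes was not tested.

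RNAs that stay in the nucleus were also read, though they are not protein-coding and a pull-down of ribosomes holds few of them. Of 7, 4 rose and 0 fell (median log2 fold change 0.94), beside 174 called of 6083 lncRNA genes, 2.86%. Malat1 was 5.80 to 7.83 CPM at zt3 (median 6.42) and 20.2, 29.3, 22.4, 23.9 and 27.8 CPM at zt15, so that it rose by 1.91, and Meg3, Miat and Snhg11 rose by 1.41, 1.24 and 0.94. Malat1 rose as well on HFS ad lib (1.58), on NC ad lib (1.26) and between the trained TRF groups (2.07).

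**Figure D3:**
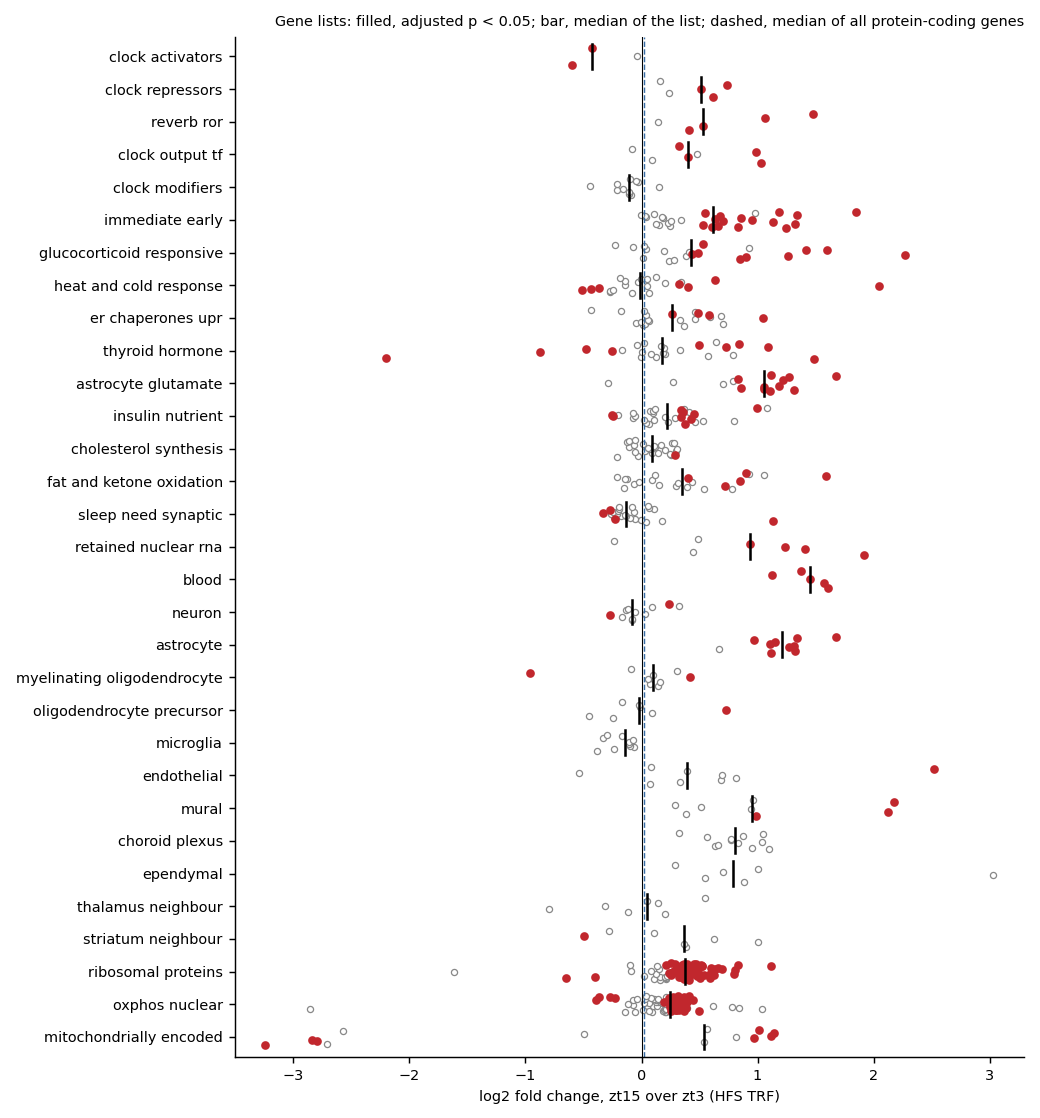
Log2 fold change of zt15 over zt3 under HFS TRF for each member of 31 gene lists, filled where the adjusted p is under 0.05, with bars at the median of each list and a dashed line at the median of all protein-coding genes (0.03). Astrocyte, glutamate handling and blood genes lie to the right, with medians of 1.21, 1.06 and 1.46, and choroid plexus genes hold no filled point.

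The same comparison on the other diets shows how the night differs from the day with food at all hours. These mice are other animals from the same pair of experiments. In HFS ad lib mice 1742 protein-coding genes were called, 9.9%, with 1062 rises and 680 falls, and in NC ad lib mice 2008, 11.4%, with 1423 and 585. Of the 1589 genes that rose under TRF, 905 (57.0%) rose in NC ad lib, which is 63.6% of the NC ad lib rises, and 622 (39.1%) rose in HFS ad lib, 58.6% of the HFS ad lib rises. Of the 1211 that fell, 377 (31.1%) fell in NC ad lib, 64.4% of the falls there, and 393 (32.5%) in HFS ad lib, 57.8% of the falls there. Just 1 gene was called in the opposite direction, a TRF rise called as a fall in HFS ad lib, and 629 genes were called on all 3 diets the same way. The TRF rises had a median log2 fold change of 0.48 under TRF, 0.37 in NC ad lib and 0.30 in HFS ad lib, and these genes were picked by their change under TRF.

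For no gene did the change differ between TRF and another diet past an adjusted p of 0.05 in edgeR. Against HFS ad lib 0% of the genes were called, with 1281 at an unadjusted p under 0.05, and against NC ad lib 0%, with 891. The DESeq2 Wald test called 0 and 1, with 1043 and 712 at an unadjusted p under 0.05. Values are given side by side. Cry1 gave 0.74 under TRF, 0.39 in HFS ad lib and 0.46 in NC ad lib, and the unadjusted p of the difference was 0.0072 against HFS ad lib and 0.0276 against NC ad lib. Per3 gave 0.52, 0.03 and 0.50, with an unadjusted p of 0.00468 against HFS ad lib, and Dbp 1.03, 0.52 and 0.95, with 0.032. Bmal1 was alike on paper, at -0.60, -0.52 and -0.56, and so was Rorb, at 1.06, 0.85 and 1.04.

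The smallest unadjusted p against HFS ad lib belonged, upward, to Smurf2, St8sia2 and Nid1 and, downward, to Gm7233, Myc and Ctr9. Smurf2, a ubiquitin ligase of TGF-beta signalling, was 24.3 to 26.6 CPM at zt3 (median 25.6) and 31.7, 30.1, 28.8, 28.6 and 28.2 CPM at zt15 under TRF, with log2 fold changes of 0.21 under TRF and -0.20 in HFS ad lib (unadjusted p = 4.8e-05). Its TRF call was lost without any of 4 of the mice, with zt15 replicate 1 the most (adjusted p = 0.0918), and without the mice rich in choroid plexus (0.322). The basement membrane gene Nid1 was 0.121 to 0.665 CPM (median 0.390) and 2.25, 2.57, 2.02, 1.05 and 1.497 CPM, with log2 fold changes of 2.24, -0.20 and 0.41 under TRF, HFS ad lib and NC ad lib. St8sia2, which makes polysialic acid, gave 0.94 and -0.89 at a level of 0.825 and 1.58 CPM in the mean TRF mouse at zt3 and zt15, and its TRF call was lost without any of 7 of the mice (adjusted p = 0.122 without zt15 replicate 2). Gm7233 was at 0 in all zt15 mice. Myc gave -0.29 under TRF and 0.45 in HFS ad lib. Ctr9 came up against both diets, at -0.50, -0.11 and -0.08 under TRF, HFS ad lib and NC ad lib (unadjusted p = 3.1e-04 and 1.2e-04), and the 5 zt15 TRF mice, at 43.2, 39.9, 40.3, 40.7 and 38.5 CPM, were all below the zt3 range of 52.7 to 60.2 CPM (median 57.8). Against NC ad lib the smallest unadjusted p belonged, among others, to Gja5, Mc4r, Stambpl1 and Ankrd40cl. Of these Stambpl1 (0.25 under TRF, -0.12 in NC ad lib) and the melanocortin receptor Mc4r (-0.40 and 0.49) were above 1 CPM in every TRF mouse. Ankrd40cl was at 0 in all zt3 mice, and lost its TRF call without any of 10 of the mice (adjusted p = 0.0928 without zt15 replicate 4), and the Stambpl1 call under TRF was lost without zt3 replicate 6, zt15 replicate 4 or zt15 replicate 5 (adjusted p = 0.0611, 0.0655 and 0.135).

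**Figure D4:**
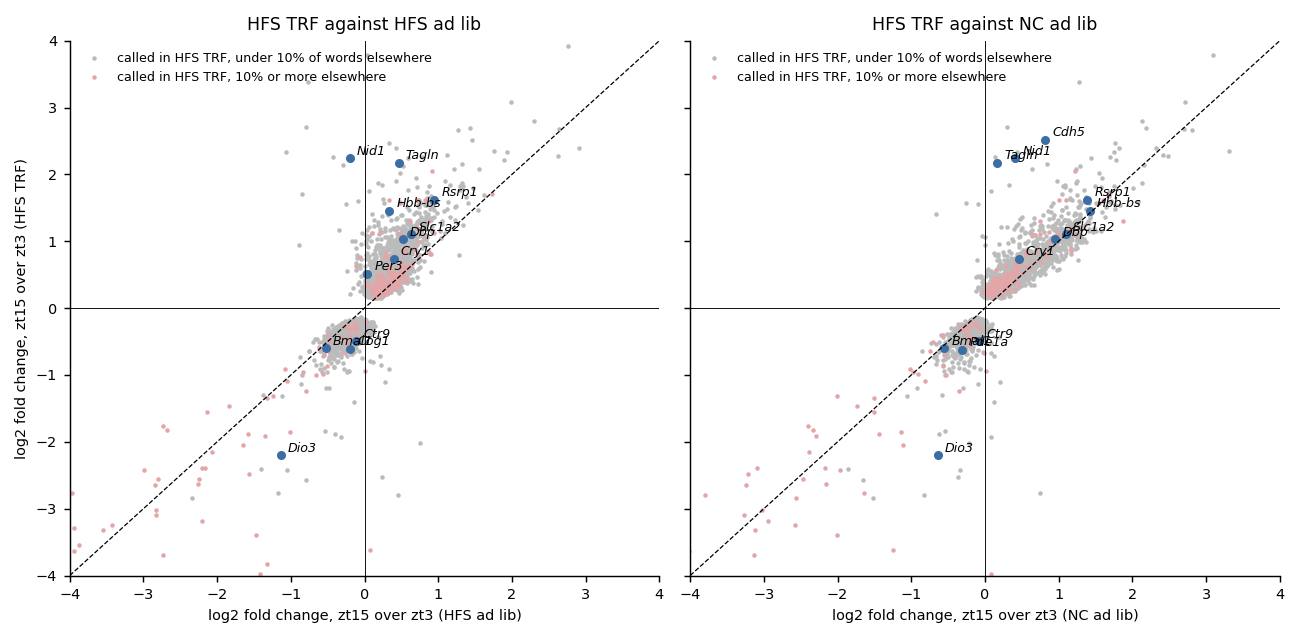
Log2 fold change of zt15 over zt3 under HFS TRF against that in HFS ad lib and in NC ad lib mice, for the protein-coding genes called under HFS TRF and between -4 and 4 on both axes, with equal change dashed, named genes in blue and genes with at least 10% of their 50-base words elsewhere in pink. The genes were picked by their change under HFS TRF, and Per3 (0.52 against 0.03) and Nid1 (2.24 against -0.20) lie far from the line for HFS ad lib.

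Gene lists on the other diets gave the following, where 9.9% of all protein-coding genes were called on HFS ad lib and 11.4% on NC ad lib, beside 15.9% under TRF. Astrocyte markers rose in 4 of 10 cases on HFS ad lib and in 10 on NC ad lib, with median log2 fold changes of 0.68 and 1.17 beside 1.21 under TRF. The difference of TRF from HFS ad lib had an unadjusted p under 0.05 in 0 of these 10. Over all 17601 protein-coding genes 1281 reached it, and 0 passed after adjustment. Of 15 genes of glutamate handling 3 and 12 rose, and the same difference reached that unadjusted p in 1. The 5 blood genes did not rise on HFS ad lib (0 of 5, median 0.33), and all 5 rose on NC ad lib (1.42). In all 5 the difference of TRF from HFS ad lib had an unadjusted p under 0.05, beside 1281 of 17601 genes. For microglia 5 of 10 markers rose on HFS ad lib and 0 on NC ad lib, with medians of 0.77 and -0.20 beside -0.14 under TRF. The difference of TRF from HFS ad lib had an unadjusted p under 0.05 in 8 of the 10, beside 1281 of 17601 genes. These markers summed to at most 119.0 CPM in the 11 TRF mice and to 671.2 CPM in the highest library of the series. The spread among the HFS ad lib mice is not given here, so the weight of single mice in this difference is not known. Immediate early genes rose in 8 and 7 of 30 cases on HFS ad lib and NC ad lib, beside 16 under TRF, and ribosomal protein genes in 64 and 47 of 82, beside 65. Of the 30 and the 82, the difference of TRF from HFS ad lib had an unadjusted p under 0.05 in 3 and 1.

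Trained TRF mice from the same experiments, 12 h and 1 h after an object recognition training, give a further night and day pair in which activity differs too. Between them 20.2% of protein-coding genes were called, 1777 rising and 1782 falling at 12 h. Bmal1 fell there as in the home cage (-0.58, adjusted p = 1.1e-05) and Dbp rose (0.64). Cry1 gave -0.01, Per3 0.00 and Ciart 0.18, whereas Per1 fell by 0.83, and 24 of 30 immediate early genes fell, in trained mice that had explored objects 1 h before the day sample. Gapdhrt fell by 3.02 and Uba52rt rose by 1.80, as in the home cage. Of 10 astrocyte markers 1 fell and 0 rose (median log2 fold change -0.40).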

How the data were processed

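Hippocampal mRNA bound to phosphorylated S6 was sequenced, and the authors deposited an integer count per gene for 71 mice in 12 groups. The submitters' notes name Trim Galore 0.6.7 with cutadapt 3.4, HISAT2 2.2.0 on GRCm39 and featureCounts of Subread 2.0.3, list mm9 as well, and give no strand setting for the counting. Reads were paired, 50 bases long, from a stranded kit. Counts were normalized by TMM and fitted in edgeR 4.0.16 (R 4.3.3) with quasi-likelihood tests in 1 model of 12 group means. Benjamini-Hochberg adjustment ran over 30141 genes within each comparison, and the threshold was 0.05. DESeq2 1.42.0 was the second tool. Gene symbols, biotypes and sequences came from a GRCm39 annotation that held 56310 of the 57010 gene identifiers. SE is the one implied by the F statistic. The fits were tested on simulated data, and no result of that is given here. Promoter windows are those of RefSeq.

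The members and the gene lists were chosen with earlier results of these data known. Genes named are the clock genes, the 8 smallest adjusted p and the 6 largest changes in each direction among called genes that did not overlap and reached 1 CPM, the 3 smallest p in each direction for each difference between diets, up to 4 per list and its most abundant member, and all of the thyroid hormone and glutamate lists. Some genes are not reported here. Further members of lists are given by their fold change alone. The limit on shared words, a further choice of named genes under it, and the fits without mice rich in choroid plexus or astrocyte markers were added after seeing the data. Alternatives were the size factors of DESeq2, its Wald test, a minimum of 1 count, filterByExpr, protein-coding genes alone, the compared groups by themselves, replicate numbers as blocks, a fold change over 1.2, and each mouse left out.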

Additional observations from a re-analysis of the deposited data

Results flagged for a closer look

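Among 376 groups of mice tested, the levels of named genes and the sums per library at zt3 and at zt15, 10 held a mouse set apart by Dixon's criterion, that is with a gap to its nearest neighbour above 0.625 of the range with 6 mice or 0.710 with 5. That is 2.66% of the groups, and chance flags about 1 in 20. At zt3 the mouse apart was the highest for Nr1d2 (62.55 CPM, the others 50.72 to 54.40), Slc47a1 (0.3971 CPM, the others up to 0.1674), Gm7233 (0.1297 CPM), Rpl23a (42.61 CPM) and Slc7a5 (24.26 CPM), and the lowest for Uqcrc2 (228.6 CPM, the others from 259.6). At zt15 it was the lowest for Uba52rt (66.27 CPM, the others from 82.02) and Pik3ca (38.34 CPM) and the highest for Camk2a (6004 CPM, the others 4239 to 4575) and Itm2a (8.691 CPM). Camk2a, Itm2a and Pik3ca were set apart in zt15 replicate 3, the mouse with the most choroid plexus RNA.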

How the results depend on the processing

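Of the counts of called genes, 1 moved past its limits: 2800 under TRF became 869 without the mice rich in choroid plexus markers. Otherwise it lay between 2187 (without zt15 replicate 4) and 3207 (DESeq2 Wald test), with 2939 under the replicate block, 2339 over a fold change of 1.2 and 2832 with DESeq2 size factors. The share of rises, 56.8%, was 46.5% with protein-coding genes alone, 65.1% with a minimum of 1 count, 60.6% with DESeq2 size factors and 60.7% under the Wald test. The difference from NC ad lib went from 0 genes to 1 under the Wald test. Signs turned in log2 fold changes near 0 or with a large SE. With 1 mouse left out they ranged from -0.09768 to 0.00522 for Gsk3b, from -0.1773 to 0.1574 for Homer1, from -0.03456 to 0.02912 for Thra, from -0.07917 to 0.05101 for Olig1, from -0.0548 to 0.1865 for Itm2a, from -0.3522 to 0.04008 for Prkcd, from -0.0007493 to 0.3809 for Slc16a10, from -0.03955 to 0.1528 for Slc7a5, from -0.01624 to 0.02401 for Rxrb and from -0.02087 to 0.04818 for Pik3ca. Thra was 0.005465 with DESeq2 size factors or the Wald test and 0.01811 with a minimum of 1 count, and Olig1 was 0.00231, 0.00235 and 0.01416 there and 0.01913 under the replicate block. Rxrb was -0.007039 with filterByExpr and -0.01893 with protein-coding genes alone, where Pik3ca was -0.007998. Without the mice rich in choroid plexus Ttr was -2.228, Foxj1 -0.2757, Slco1c1 -0.4874, Slc38a3 -0.2714, Slc7a5 -0.09621, Thra 0.04302, Rxrb -0.02238 and Pik3ca -0.03125. Without the zt3 mice rich in astrocyte markers Homer1 was -0.1113, Olig1 0.09287, Prkcd 0.0345, Rxrb -0.01035 and Pik3ca -0.02221. The cause was not tested.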
